A study of Arabidopsis thaliana with 6 samples.

Results

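The transcripts described here were bright and nearly level in root pericycle cells before and during auxin treatment. They are the 31 probe sets, of 22810 on the array, with a signal of at least 2000 on each of 6 arrays and a difference under 0.7 between their highest and lowest log2(signal + 5). Affymetrix controls, ribosomal proteins, proteasome subunits and genes of the plastid and mitochondrial genomes are left out by the rule. Without the 64 controls, the 31 were 0.136% of the probe sets. They were chosen by the same signals that are described here, so their levels and their steadiness are a description and no test of change applies to them. A probe set is a group of short probes for 1 transcript or, in some cases, for those of several genes. Its signal depends on its probes as well as on what they match, so signals of different probe sets are not set against each other.

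Xylem pole pericycle cells lie inside the root next to the xylem strands, and lateral roots start from them when auxin lets them re-enter the cell cycle. Transcripts that stay level through such a change are often those of general cell functions, such as respiration, the entry of proteins into organelles and the use of sugars. Respiration in mitochondria passes electrons through large complexes of many subunits, most of which are made from nuclear genes and imported, and an import signal is then cut off by a processing peptidase. Secreted and membrane proteins enter the endoplasmic reticulum through a channel with its own accessory subunits.

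Cells came from Arabidopsis thaliana roots of line J0121, an enhancer trap in which GAL4 drives a green fluorescent protein, and every group carried it. The seedlings of all groups were raised on 10 µM NPA, which blocks auxin transport. They were sampled at 72 hours after germination with no NAA (0 h), or moved to 10 µM NAA, a synthetic auxin, and sampled at 74 hours (2 h) or 78 hours (6 h). The series' design gives the 3 times as arrest before DNA replication, progress toward it, and the approach to division, and each had 2 arrays, called biological replicates in the labels. Fluorescent cells were sorted, so a group is what the J0121 marker labels in these roots, and time on NAA and age of the seedling cannot be told apart.

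Median signals of the 6 arrays lay between 75.7 and 110 units. The ratio of 3′ to 5′ actin control probe sets, a sign of how complete the labelled RNA was, ran from 1.37 to 4.48, with the highest values on the 6 h arrays (4.48 and 3.84). The same ratio for GAPDH was highest on 0 h replicate 1 (5.78) and was 4.37 and 3.42 on the 6 h arrays. For ubiquitin it ran from 5.99 on 0 h replicate 2 to 10.67 on 6 h replicate 2. The geometric mean signal of the Affymetrix hybridization controls ran from 1304.2 on 2 h replicate 1 to 10418.5 on 0 h replicate 1. Their part in the results was not tested. Of the 6 pericycle and stele markers on the list none was paired with a probe set of its own, so the label could not be checked from them. The epidermis markers EXPA7 and EXPA18 stayed at 3 to 101 signal units. The endodermis marker GSO1 had 75.6 and 26.1 signal units at 6 h, against 601 and 829 at 0 h and 553.4 and 1212.5 at 2 h. It was the 1 of 5 endodermis markers measured, and its part in the 6 h results was not tested. These are bulk samples, in which fewer cells of a type and less RNA per cell cannot be told apart.

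On every array 274 probe sets reached 2000 (1.20%), and the 31 were 11.3% of these. Their signals ran from 2049 to 23051 units. Highest over lowest signal ran from 1.14-fold to 1.62-fold across the 31, with a median of 1.48-fold. The same ratio had a median of 2.57-fold over the 274 bright probe sets and of 3.09-fold over the 13647 probe sets bright enough to be tested. On the 1 array with detection calls, replicate 1 at 2 h, all 31 were called present, beside 54.8% of all probe sets. The rule already asks for a signal of 2000 on that array, where the median was 75.7, so the calls add no support. Only 8 of the 31 could be named from a probe set with 1 gene. A further 1 is paired with several genes and 22 with none, so whether those 22 belong to a class that the rule leaves out could not be checked.

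**Figure D1:**
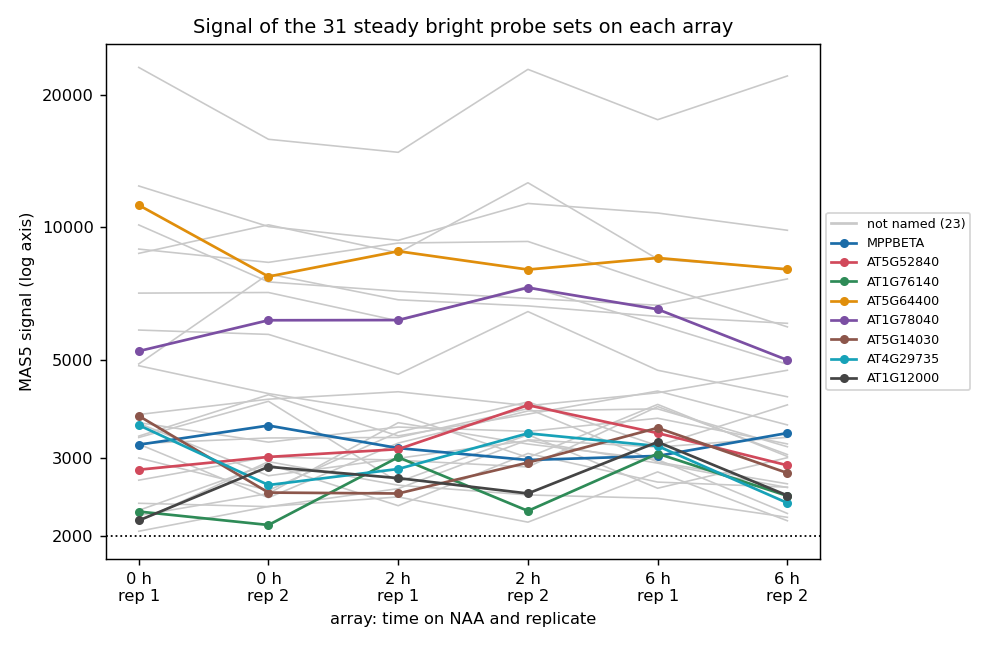
Signal of the 31 steady bright probe sets (vertical, log axis) on the 6 arrays (horizontal). Each line is 1 probe set, the 8 named ones are coloured, and the dotted line marks the minimum of 2000; highest over lowest signal does not pass 1.62-fold on any line.

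MPPBETA (AT3G02090) encodes the beta subunit of the mitochondrial processing peptidase, which in plants is also built into complex III of the respiratory chain. MPPBETA gave 3219 and 3557 signal units at 0 h, 3162 and 2971 after 2 h, and 3035 and 3420 after 6 h. The arrays of the 3 times overlapped except that both 2 h values lay below both 0 h values, and the range was 0.26 log2 units, or 1.20-fold, the smallest of the 8 named on the deposited scale. AT5G52840, a subunit of complex I, the NADH dehydrogenase at the start of the chain, gave 2825 and 3020 units at 0 h, 3144 and 3956 after 2 h, and 3419 and 2890 after 6 h. Both 2 h arrays were above both 0 h arrays (range 0.49), and the 6 h arrays fell among them. AT5G64400 encodes a protein with a CHCH domain, a fold of small proteins many of which are found between the mitochondrial membranes. It gave 11236 and 7739 units at 0 h, 8833 and 8027 after 2 h, and 8529 and 8036 after 6 h. Its highest and lowest signals were the pair at 0 h, and the 2 h and 6 h arrays all lay between them (range 0.54).

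Of the transcripts of secretion, AT5G14030 encodes the beta subunit of the translocon-associated protein complex, which sits beside the protein channel of the endoplasmic reticulum. It gave 3741 and 2507 signal units at 0 h, 2495 and 2931 after 2 h, and 3513 and 2777 after 6 h. The replicates at 0 h were almost as far apart as its highest and lowest arrays (a gap of 0.58 log2 units), and all groups overlapped. AT1G78040 belongs to the Ole e 1 family, named after an olive pollen allergen. It gave 5245 and 6161 units at 0 h, 6167 and 7304 after 2 h, and 6525 and 5005 after 6 h. Both 2 h arrays were above the 0 h arrays by a margin that was very small for one of them, and the 6 h arrays spanned the 0 h pair.

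The remaining named transcripts include 2 enzymes. AT1G12000 encodes the beta subunit of the pyrophosphate-dependent phosphofructokinase, PFP, which interconverts fructose phosphates in the cytosol and uses pyrophosphate in place of ATP. It gave 2167 and 2868 signal units at 0 h, 2704 and 2495 after 2 h, and 3264 and 2469 after 6 h, and the groups overlapped (range 0.59). AT1G76140, of the prolyl oligopeptidase family that cuts short peptides after proline, gave 2271 and 2117 units at 0 h, 3014 and 2278 after 2 h, and 3072 and 2464 after 6 h. Both arrays at 2 h and both at 6 h were above the 0 h pair, the closest only slightly, and replicate 1 was the higher at every time (range 0.54). AT4G29735 gave 3564 and 2608 units at 0 h, 2835 and 3415 after 2 h, and 3196 and 2375 after 6 h. Its 6 h and 2 h arrays both overlapped those at 0 h (range 0.58).

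The 23 others are known here by probe set alone. The smallest range of all 31 was that of 260615_at, which gave 3611 and 3261 signal units at 0 h, 3529 and 3450 after 2 h, and 3695 and 3231 after 6 h. Its lowest and highest signals were the 2 arrays at 6 h (range 0.19), and the means of the 3 times lay within 0.02 log2 units. The probe set 258680_at gave 23051 and 15841 units at 0 h, 14801 and 22817 after 2 h, and 17547 and 22046 after 6 h. Here the replicates of each time differed by more than the means of the times, which lay within 0.10. Just inside the limit on the range stood 253274_at (0.697) and 258649_at (0.690), and just outside it AT5G65660 (0.703) and 256679_at (0.705). Just inside the signal minimum stood 260730_at and AT1G76140, with lowest signals of 2049 and 2117, and just outside it AT4G32470 (1961), a subunit of complex III, and 261081_at (1946). A range of 0.7 to 1 was seen in 47 bright probe sets, and 49 steady ones had a lowest signal of 1000 to 2000.

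Set against 0 h, the 31 probe sets moved little, as the rule requires, and in both directions. At 2 h, 20 were higher and 11 lower than at 0 h, with log2 differences from -0.42 to 0.53 and a median of 0.04, beside a median of -0.15 over all tested probe sets. At 6 h, 16 were higher and 15 lower than at 0 h, with differences from -0.40 to 0.47 and a median of 0.01, beside -0.11 over all. In the limma fit over the whole array, none of the 31 was called at an adjusted p under 0.05 in either comparison, and none had an unadjusted p under 0.05. Of all tested probe sets 11.4% were called at 2 h and 33.8% at 6 h. In 12 of the 31 the 2 h and 0 h arrays did not overlap (9 above, 3 below), and the same was true of 12 for 6 h and 0 h (5 above, 7 below). Over all tested probe sets those shares were 55% and 65.8%. Since the rule used these signals, nothing is read from the counts.

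The largest gap between replicates exceeded the range of the 3 time means in 22 of the 31, and the medians were 0.39 and 0.24 log2 units. A gap lies between single arrays while a time mean averages 2, so noise alone tends to make the gap the larger. The rule limits both, and the share over all probe sets was not counted, so nothing is read from the 22. Gaps had medians of 0.23 at 0 h, 0.23 at 2 h and 0.24 at 6 h, against 0.51, 0.35 and 0.38 over all tested probe sets. At 6 h replicate 1 was above replicate 2 in 24 of the 31, while at 0 h and 2 h it was so in 15 and 13. The share over all probe sets was not counted, so nothing is read from these counts. The median deviation of the 31 from their mean over arrays was largest on 2 h replicate 2 (0.12) and lowest on 6 h replicate 2 (-0.10). On the same arrays the other bright probe sets had medians of 0.31 and 0.05, and all probe sets -0.04 and 0.08. The first of these arrays held the highest signal of 9 of the 31 and the second the lowest signal of 9, while 0 h replicate 1 held the highest of 8 and the lowest of 10. The plot of replicate gaps against time means shows AT5G14030 and AT5G64400 far above the diagonal, with replicate gaps of 0.58 and 0.54 and time means within 0.21 and 0.17. MPPBETA was near it, at 0.17 and 0.14.

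**Figure D2:**
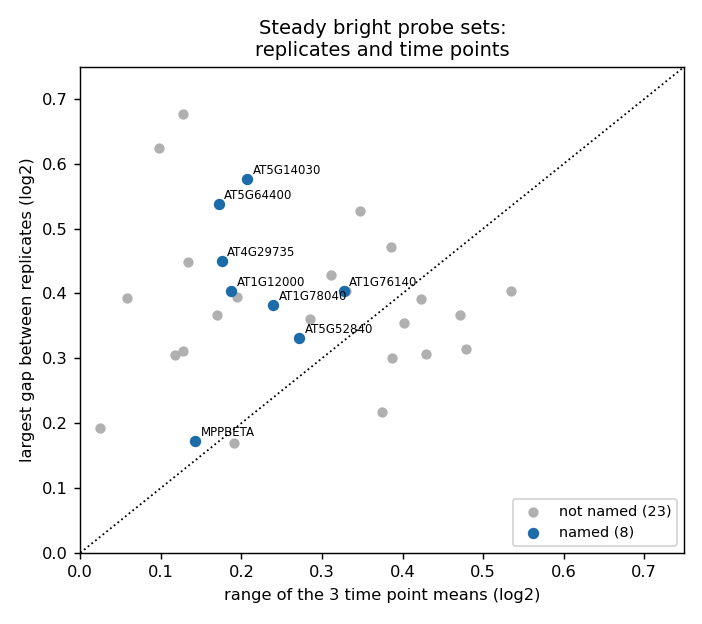
Range of the 3 time means (horizontal) against the largest gap between replicates (vertical), both in log2 units, for the 31 steady bright probe sets. Points above the dotted line, where both are equal, varied more between replicates than between times, as 22 of the 31 did.

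The other bright probe sets give the setting of these 31. Of the 49 for ribosomal proteins, the core of the protein-making machinery and a class the rule leaves out, none had a range under 0.7, and their median range was 2.23 log2 units. All 43 that limma called at 6 h were higher than at 0 h, beside 16.8% higher and 17% lower over all tested probe sets. The 7 for plastid or mitochondrial genes had a median range of 1.68, with none under the limit. Of the remaining bright probe sets, 9 of the 66 paired with a gene and 22 of the 152 with none were under it. The exclusions in the rule therefore removed none of the probe sets that could be checked.

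**Figure D3:**
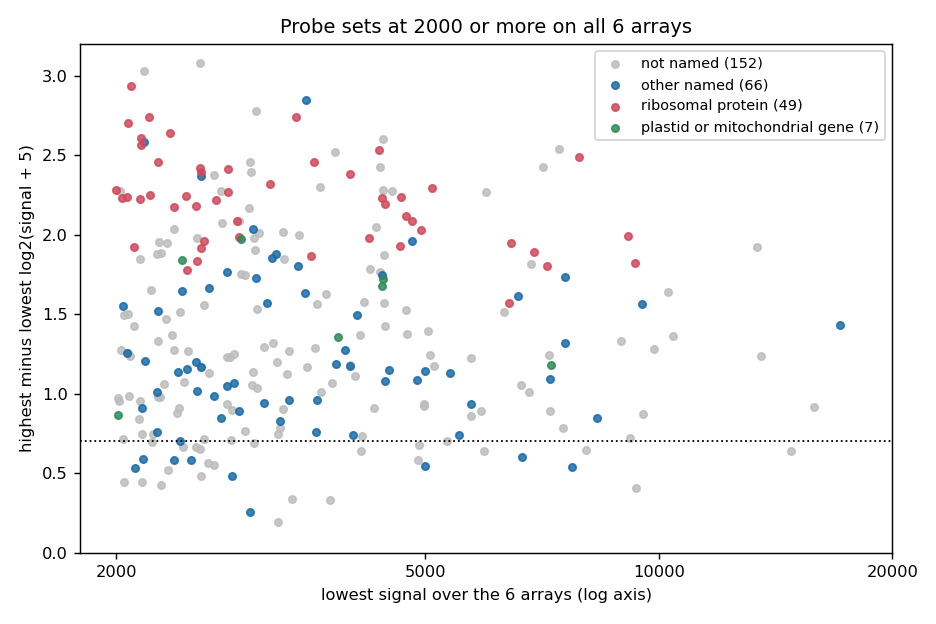
Lowest signal over the 6 arrays (horizontal, log axis) and range of log2(signal + 5) (vertical) for the 274 probe sets at 2000 or more on every array, coloured by class. The dotted line marks the range limit of 0.7, and all 49 ribosomal protein probe sets lie above it, from 1.57 to 2.94.

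Subunits that work with the named steady transcripts were looked up in lists of the same complexes, written from knowledge of the complexes after the values had been seen. Of 89 genes of the respiratory chain, 53 were measured by a probe set of their own, 2 of them MPPBETA and AT5G52840. Among the 50 others tested, limma called 3 higher and 8 lower at 6 h, relative to 0 h, with a median log2 difference of -0.43, beside 16.8% higher and 17% lower over all tested probe sets. That count of 11 came to 2 without 6 h replicate 2, 7 without 6 h replicate 1, and 6 without 0 h replicate 1, with median centring or with eBayes without a trend. At 2 h, 1 of the 50 was higher than at 0 h and none lower, beside 7.26% and 4.12% over all, and none was called without 2 h replicate 2.

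In complex I, the complex of AT5G52840, 6 of 23 others tested were lower at 6 h and none higher, beside 17% and 16.8% over all tested probe sets, with a median of -0.72 beside -0.11 over all. None of them was called without 6 h replicate 2, 1 without 0 h replicate 1 or with arrays centred on their medians, 2 with eBayes without a trend, 3 without either 2 h array, 4 without 6 h replicate 1 and 9 without 0 h replicate 2. The lowest of these was AT3G03100, a complex I subunit with 1126 and 927 signal units at 6 h, against 2840 and 2391 at 0 h. Its log2 difference was -1.35 ± 0.30 (SE, 2 arrays a group, limma adjusted p = 0.00557). Without 6 h replicate 2 the call of AT3G03100 was lost (limma adjusted p = 0.0592). At 2 h none of the 23 was called by limma, beside 11.4% over all tested probe sets, and none had an unadjusted p under 0.05.

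Complex II, the succinate dehydrogenase, held 2 lower and no higher genes among 3 tested at 6 h, beside 17% and 16.8% over all tested probe sets. SDH1-1, its flavoprotein subunit, gave 711 and 949 signal units at 6 h, against 2046 and 3430 at 0 h, a log2 difference of -1.68 ± 0.36 (SE, limma adjusted p = 0.00434). SDH2-2, an iron-sulphur subunit, gave 617 and 496 units at 6 h, against 1578 and 1300 at 0 h, a difference of -1.36 ± 0.32 (SE, limma adjusted p = 0.00667). The 6 h values of both were below all their 0 h values. The SDH1-1 call was lost without 6 h replicate 1 (limma adjusted p = 0.0507) and the SDH2-2 call without 6 h replicate 2 (limma adjusted p = 0.0630).

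Complex III, which holds MPPBETA, had 1 higher and no lower gene among 10 others tested at 6 h, with a median of -0.16. Over all tested probe sets the shares were 16.8% and 17%. The largest fall was that of AT3G27240, with 1644 and 1726 signal units at 6 h, against 3236 and 3006 at 0 h. Its log2 difference of -0.89 ± 0.32 (SE) fell just short of a call (limma adjusted p = 0.0542). With the replicate block, 1 of the 10 was called lower. The same held after quantile normalization and when only means above the 60th percentile were tested. No other setting gave a lower call. The partner subunit of MPPBETA, MPP alpha (AT1G51980), gave 2302 and 1634 signal units at 6 h, against 1816 and 2520 at 0 h. It was not called (limma adjusted p = 0.780). Its 6 h arrays lay within and below the 0 h pair, and its range of 0.62 would have met the range limit. The called subunit, AT5G25450, gave 867 and 967 units at 6 h, against 311 and 415 at 0 h, a log2 difference of 1.34 ± 0.32 (SE, limma adjusted p = 0.00739, or 0.0569 without 6 h replicate 2).

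Cytochrome c and complex IV, which hand electrons to oxygen, had 1 higher gene among 9 tested at each of 2 h and 6 h. Over all tested probe sets 7.26% were higher at 2 h and 16.8% at 6 h. The higher gene was AT5G61310, a complex IV subunit with 861 and 949 signal units at 2 h and 848 and 865 at 6 h, against 317 and 118 at 0 h. All 4 arrays on NAA were above both 0 h arrays. The log2 difference was 2.19 ± 0.42 at 2 h (SE, limma adjusted p = 0.00695, or 0.0631 without 2 h replicate 2) and 2.11 ± 0.42 at 6 h (SE, limma adjusted p = 0.00266), the second kept in all 15 alternatives run. CYTC-1, a cytochrome c gene, gave 6588 and 6292 units at 6 h, against 7767 and 5526 at 0 h. Its range of 0.74 was just over the limit and it was not called (limma adjusted p = 0.964). In complex V, the ATP synthase, 1 of 5 tested was higher at 6 h and none lower, beside 16.8% and 17% over all tested probe sets. That gene, AT4G26210, gave 729 and 579 units at 6 h, against 384 and 177 at 0 h, a log2 difference of 1.30 ± 0.39 (SE, limma adjusted p = 0.0240). Leaving out 0 h replicate 2 or either 6 h array, or fitting no trend, each ended that call, with the limma adjusted p reaching 0.144.

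**Figure D4:**
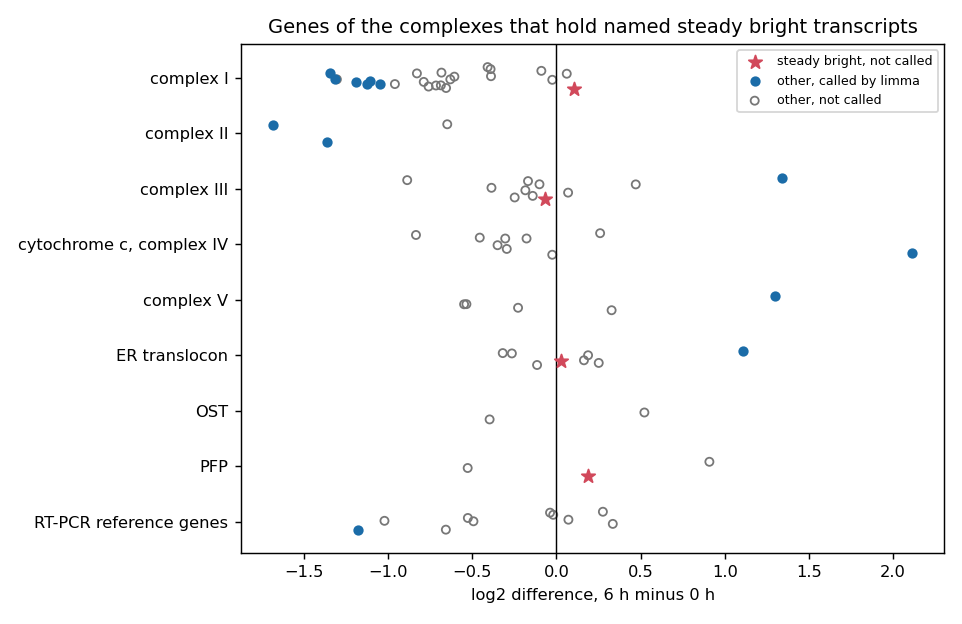
Log2 difference, 6 h minus 0 h (horizontal), of each tested gene of the respiratory chain, the ER channel (translocon), the OST, PFP and the RT-PCR reference genes (rows). Complexes II, IV and V and the OST hold no named steady transcript. Stars are steady bright transcripts, none of which was called and whose calls say nothing since the rule used these signals; filled points were called by limma at an adjusted p under 0.05 and open points were not; the 6 called points of complex I are all left of 0. ER is the endoplasmic reticulum and OST its oligosaccharyltransferase.

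Around AT5G14030, 11 of 22 listed genes of the endoplasmic reticulum channel and of the oligosaccharyltransferase, which adds sugars to incoming proteins, were measured. A range under 0.7 was seen in 5 of the 11, and AT5G14030, chosen for such a range, is 1 of these. The share of all probe sets under 0.7 was not counted, so the 5 are a description. AT2G21160, the alpha subunit of the same translocon-associated complex, gave 2040 and 2020 signal units at 0 h, 1787 and 2098 after 2 h, and 2528 and 2045 after 6 h. It missed membership through its signal of 1787 on 1 array, and its range was 0.50. AT2G01720, a ribophorin of the oligosaccharyltransferase, had a range of 0.45 at lower signals. Of 9 others tested, 1 was higher and none lower at 6 h, beside 16.8% and 17% over all tested probe sets. The higher gene was AT3G48570, a gamma subunit of the SEC61 channel, with 643 and 817 units at 6 h, against 336 and 330 at 0 h. Its log2 difference was 1.11 ± 0.31 (SE, limma adjusted p = 0.0180, or 0.128 without 6 h replicate 2). At 2 h none of the 9 was called by limma, beside 11.4% over all tested probe sets, and 1 had an unadjusted p under 0.05.

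The enzymes' relatives did not all stay level. AT1G20380, the other listed gene of the prolyl oligopeptidase family, gave 197 and 233 signal units at 6 h, against 1733 and 1274 at 0 h, and 472 and 872 at 2 h. Every array on NAA was below both 0 h arrays. The log2 difference at 6 h was -2.77 ± 0.37 (SE, limma adjusted p = 2.16e-04), and the call was kept in all 15 alternatives run. AT1G20950, an alpha subunit of PFP, gave 2461 and 3177 units at 6 h, against 1192 and 1857 at 0 h. The groups did not overlap, but the difference of 0.91 ± 0.34 (SE) was not called (limma adjusted p = 0.0568). It was called without 0 h replicate 2 (limma adjusted p = 0.0238) and with a filter at the 60th percentile (limma adjusted p = 0.0491). The other PFP gene tested, AT1G76550, went the other way, with 612 and 898 units at 6 h, against 884 and 1296 at 0 h. Its log2 difference of -0.53 ± 0.34 (SE) was not called either (limma adjusted p = 0.267). The listed relatives of AT5G64400 and AT1G78040 held 1 and 2 tested genes, none called by limma in either comparison or at an unadjusted p under 0.05.

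Genes long used as references in plant RT-PCR, picked for level expression in other data, were looked up in the same way. Of 29 listed, 10 were measured by a probe set of their own and none of these 10 met the rule. The other 19 could not be looked for among the unnamed members. Only 1 of the 10 was bright, so the rest could not meet the rule whatever their range, and 0.136% of all probe sets met it. In the 10, ranges ran from 0.77 to 2.21 log2 units, with a median of 1.15, beside 1.57 over all tested probe sets. GAPC2, a glycolytic glyceraldehyde phosphate dehydrogenase and the 1 bright gene among them, gave 28186 and 15368 signal units at 0 h, 11903 and 17745 after 2 h, and 11040 and 9511 after 6 h. Its 6 h arrays were below both 0 h arrays, but the log2 difference of -1.02 ± 0.41 (SE) was not called (limma adjusted p = 0.0733). It was called without 0 h replicate 2 and after quantile normalization, with a lowest limma adjusted p of 0.00394. TUB6, a beta-tubulin, gave 298 and 323 units at 6 h, against 744 and 678 at 0 h, a difference of -1.18 ± 0.31 (SE, limma adjusted p = 0.0119). It was the 1 of 10 called at 6 h, beside 33.8% over all, and was not called without 6 h replicate 1 (0.0764) or 6 h replicate 2 (0.0515, both limma adjusted p). None of the 10 was called at 2 h by limma, beside 11.4% over all tested probe sets, and 2 had an unadjusted p under 0.05.

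Few genes on wider lists of general cell functions could be checked. Over 15 lists with 201 genes, such as glycolysis, chaperones, cytoskeleton, proton pumps and translation factors, 31 were measured by a probe set of their own, of which 6 were bright and none was a member. The other 170 could not be looked for. Of 30 tested, limma called 5 higher and 8 lower at 6 h, relative to 0 h, a count of 13 that came to 8 without 6 h replicate 1 and 5 without 6 h replicate 2. Over all tested probe sets 16.8% were higher and 17% lower. The largest rise was that of Hsp70-2, a chaperone, with 1154 and 932 signal units at 6 h, against 125 and 104 at 0 h (log2 difference 3.13 ± 0.37, SE, limma adjusted p = 1.11e-04). TUB1 and TUB5, beta-tubulins, fell by 2.97 and 2.41 on the log2 scale at 6 h, and TUB7 was 1.68 higher. AT5G19510, a subunit of the elongation factor complex eEF1B, was 1.54 higher at 6 h. These 5 calls at 6 h were kept in every alternative run. Other calls were less stable: that of AT4G27130, a translation factor gene lower at 6 h (-0.89, limma adjusted p = 0.0408), was lost in 9 of 15 alternatives. Among the 8 lower at 6 h was cICDH, a cytosolic isocitrate dehydrogenase, with 7768 and 6595 units at 6 h, against 17008 and 20191 at 0 h (-1.37 ± 0.35, SE, limma adjusted p = 0.0109), a call that ended without either 6 h array. Both measured proton pump genes, AT3G58730 and AT4G02620 of the vacuolar ATPase, were also among them, at -1.72 ± 0.42 and -1.24 ± 0.32 (SE), and both calls ended without 6 h replicate 2. AT3G58730 was not called without 0 h replicate 2 either. Relative to 0 h, none was higher at 2 h and 3 were lower, beside 7.26% and 4.12% over all, among them TUB1 (-2.63) and TUB5 (-1.37), the second not called without 0 h replicate 1 or either 2 h array.

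The genes next to the named steady ones on their chromosomes were also looked up. Of 16 neighbouring loci 8 were measured, most were dim, and 3 were bright enough to be tested. Ranges of the 8 ran from 0.86 to 5.96 log2 units, with a median of 2.58. The median of 1.57 over all tested probe sets is no like measure, since most of the 8 were too dim to be tested. The named genes were chosen for a small range, so nothing is read from the larger ranges of their neighbours. AT3G02080, a ribosomal protein S19 gene next to MPPBETA, gave 6209 and 7808 signal units at 2 h and 10561 and 10045 at 6 h, against 2322 and 2215 at 0 h. Its log2 difference was 1.62 ± 0.32 at 2 h (SE, limma adjusted p = 0.00794, or 0.101 without 2 h replicate 2) and 2.18 ± 0.32 at 6 h (SE, limma adjusted p = 4.02e-04). AT1G12010, an ACC oxidase gene of ethylene synthesis next to AT1G12000, gave 2.0 and 61.2 units at 6 h, against 308 and 432 at 0 h. The signal of 2.0 is below the 10th percentile of all signals (5.3), so the size of the difference, -4.10 ± 1.07 (SE, limma adjusted p = 0.0124), is loosely set. It ran from -5.72 to -2.48 with an array left out, and was not called without 6 h replicate 1 (limma adjusted p = 0.0957).

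Which probe sets counted as steady depended on how arrays were scaled. With quantile normalization 30 probe sets met the rule and 19 of them were among the 31, and with arrays centred on their medians 22 met it and 11 were among the 31. Of the 8 named transcripts, 5 met the rule after quantile normalization (MPPBETA, AT5G52840, AT1G76140, AT1G78040 and AT1G12000) and 3 with median centring (MPPBETA, AT5G64400 and AT5G14030). MPPBETA was the 1 named transcript that met it under both, with ranges of 0.49 and 0.52. Its range was no longer the smallest of the 8 in either case: AT5G52840 had 0.37 after quantile normalization and AT5G64400 had 0.45 with median centring. Under the limit of 0.5 on the range, 10 of the 31 remained.

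**Figure D5:**
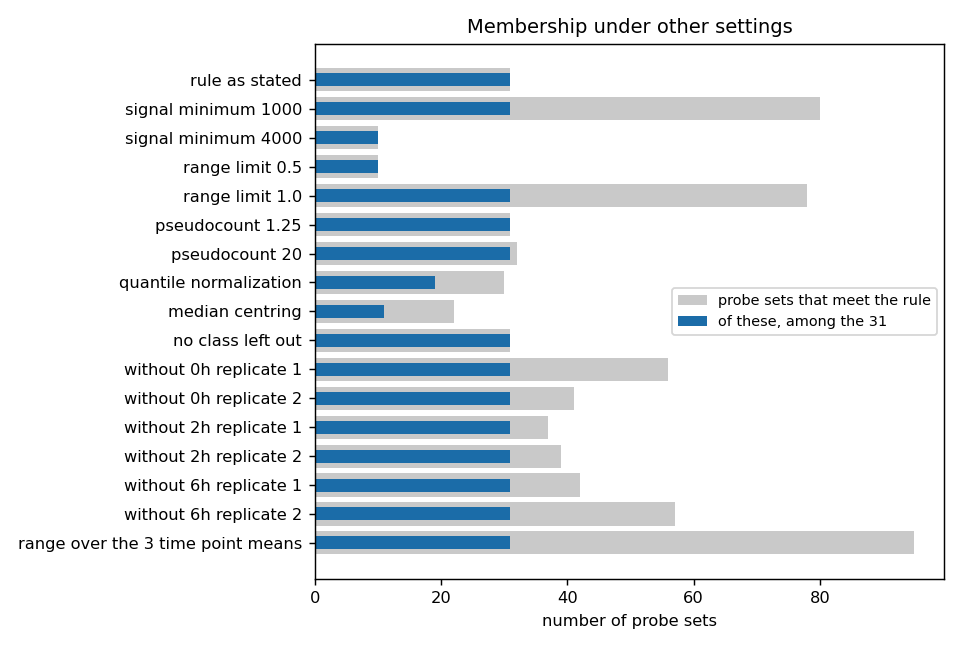
Number of probe sets that met the rule (grey) and the number of these among the 31 (blue, horizontal axis) under each setting (rows). The fewest of the 31 were 10 with a signal minimum of 4000 or a range limit of 0.5, and 11 with median centring; leaving out an array can only loosen the rule.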

How the data were processed

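Transcripts were measured on 6 one-colour Affymetrix arrays. Each probe set has 1 deposited signal, a linear intensity, and the submitters' processing notes name MAS5. Read from the values, the authors scaled each array to a trimmed mean of 250.0. A detection p-value per probe set, deposited for replicate 1 at 2 h alone, served as a description. Precision is limited by the number of arrays.

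The analysis scale was log2(signal + 5). The 13647 probe sets with a mean above the 40th percentile, controls left out, entered 1 fit of all 6 arrays with limma 3.58.1 (R 4.3.3; lmFit, then eBayes with a trend on mean signal), with 3 residual and 8.26 prior degrees of freedom. Calls are at a Benjamini-Hochberg adjusted p under 0.05 over all tested. The fit was tested on simulated data. Names came from a table pairing probe sets with genes and from the TAIR10.1 annotation, only for probe sets with 1 gene.

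Members and lists were chosen with earlier results of these data known. All named members are given, with some of the probe sets nearest each threshold and some of the called genes of each list, at most 4 a list. Genes of the complexes, relatives and neighbours, and the ribosomal protein and proteasome lists that applied the rule, were chosen after values were seen. Correlations between deviations of same-numbered replicates were 0.0565, 0.105 and 0.153, so the numbers were not taken to pair the samples. Promoter motifs and protein features were not analysed here. Alternatives covered pseudocount, filter, scaling, thresholds, trend, replicate block and each array left out.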

Additional observations from a re-analysis of the deposited data

How the results depend on the processing

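The number of steady bright probe sets, 31, became 80 and 10 with signal minimums of 1000 and 4000, 10 and 78 with range limits of 0.5 and 1.0, 95 when the range was taken over the 3 time means, and 37 to 57 with an array left out, where fewer arrays make the rule looser. A smaller pseudocount gave 31, and a pseudocount of 20 gave 32. limma called 1553 probe sets at 2 h and 4612 at 6 h; eBayes without a trend gave 976 and 4183, and leaving out an array gave 473 to 1595 and 3026 to 4489. The replicate block gave 2038 and 5106 calls, and with it the respiratory chain held 15 calls at 6 h and AT1G20950 was called at 6 h (limma adjusted p = 0.0212). Of the 2 h calls, 82.4% were higher with median centring, against 63.8% as deposited, and the median log2 difference of all tested probe sets was 0.12 against -0.15. The 6 h difference of AT1G51980 ran from -0.39 to 0.11 with an array left out, and reversed to 0.09 without 0 h replicate 2 and to 0.11 without 6 h replicate 2. That of CYTC-1 ran from -0.27 to 0.22 with an array left out, and reversed to 0.10 with median centring, 0.22 without 0 h replicate 1 and 0.01 without 6 h replicate 2. The cause of these changes was not tested, apart from the looser rule. With 2 arrays a group, small differences are not detectable.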
